A study of Homo sapiens with 18 samples.

Results

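A group of 8 genes was taken from a table of 58302 for its difference between cells transfected with a negative control siRNA (NC) and non-transfected cells (NT). The members are EIF5A2, HSPB1, JDP2, LMLN, DMBT1, PXDNL, CES4A and MAP3K7CL, each changed in at least 1 of the 2 cell lines of the study. They were selected on the measured NC and NT values of these same libraries, so the difference between those groups is given below as a description with no test. The question was where the Dicer1 siRNA libraries lay for each gene, at the level of the transfected control cells or at the level of the non-transfected cells.

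Messenger RNA was sequenced from TPC1, a cell line from a human papillary thyroid carcinoma with wild-type Dicer1, and from D11, a Dicer1 (+/-) line grown from a single CRISPR-Cas9 edited TPC1 cell. Each line was left non-transfected (NT), given negative control siRNA (NC) or given siRNA against Dicer1 (siDicer), with 3 libraries per group and 18 in all. Both siRNAs were used at 5 nM with a lipid reagent and RNA was collected on day 4. NC libraries therefore differed from NT libraries by reagent and siRNA together, and these cannot be told apart between NC and NT, while siDicer and NC libraries shared the reagent and the dose. One siRNA of each kind was used. The methods of the study speak of independent repeats for its experiments in general, but nothing in the labels says that the replicates sequenced were separate cultures, and p-values measure only the spread between these libraries.

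A small interfering RNA is a short duplex that is loaded onto an Argonaute protein, which cuts transcripts that pair with it along its length. It can also lower transcripts that pair only with its seed. A control siRNA with no intended human target is commonly transfected in parallel to account for what transfection itself does. Cells may further respond to the lipid reagent or to double-stranded RNA itself, through sensors that switch on interferon genes. The sequences of the siRNAs were not analysed here.

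Levels are given as normalised read counts, the reads of a gene scaled to 20 M reads per library. The libraries held 11.3 to 23.2 M reads (median 15.9 M), so that a single read counted for 0.861 to 1.77. For 12 samples the title and the description disagree on the group; the description was used. DICER1 followed it, with 246 to 395 in TPC1 siDicer and 277 to 451 in D11 siDicer, below every NT and NC library of the same line. In each line, replicate 2 of siDicer kept the most DICER1. The DICER1 ranges of the 2 control groups did not overlap in either line, as was so for 16.5% of all genes tested in TPC1 and 19.8% in D11. NT and NC libraries held 1397 to 1582 and 1901 to 2492 in TPC1, and 655 to 1157 and 1407 to 1536 in D11. NC was higher by 0.58 in TPC1 and 0.71 in D11 on the log2 scale (limma adjusted p 0.133 and 0.153). The thyroid genes TG, PAX8 and FOXE1 were present in every library, whereas TSHR, SLC5A5 and NKX2-1 stayed below 10 in all 18.

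The 8 genes lie on 7 chromosomes and do not belong to a single pathway. EIF5A2 is a paralog of the translation factor eIF5A, HSPB1 encodes the small heat shock protein Hsp27, JDP2 a bZIP repressor that pairs with Jun proteins, and LMLN a metallopeptidase related to leishmanolysin. DMBT1 is a secreted scavenger receptor glycoprotein of mucosal surfaces, PXDNL a relative of the matrix enzyme peroxidasin, CES4A a member of the carboxylesterase family, and MAP3K7CL resembles the C-terminal end of the kinase TAK1. HSPB1 and EIF5A2 were the most abundant, with means over 18 libraries of 1572 and 1378, at the 83.2 and 80.6 percentiles of 19181 expressed genes. CES4A was the lowest, with a mean of 115 at the 36.4 percentile.

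RefSeq promoters of 300 bases, 250 before and 50 after the start (GRCh38.p14), were at hand for 6 of the 8 genes, all but PXDNL and MAP3K7CL. They were searched on both strands for GAANNTTC (heat shock element), TGACGTCA (CRE), for the AP-1 letters TGANTCA, and for the TATA box letters TATAAA, which 6.77%, 1.85%, 7.71% and 11.5% of all 35116 promoters hold. The CRE and AP-1 letters do not contain each other. The promoters of HSPB1, DMBT1 and CES4A held a match, and none of the 4 motifs was found in those of EIF5A2, JDP2 and LMLN. The 250 bases before the start are shown for the 3 genes with a match, with the matches in capitals.
HSPB1, chr7:76302423-76302672, plus strand, heat shock element in capitals: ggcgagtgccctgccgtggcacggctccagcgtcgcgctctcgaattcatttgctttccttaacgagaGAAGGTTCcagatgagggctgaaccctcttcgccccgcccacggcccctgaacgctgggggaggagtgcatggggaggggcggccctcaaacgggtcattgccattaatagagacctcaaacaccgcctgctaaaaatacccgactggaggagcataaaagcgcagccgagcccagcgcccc
DMBT1, chr10:122560504-122560753, plus strand, TATA box in capitals on either strand: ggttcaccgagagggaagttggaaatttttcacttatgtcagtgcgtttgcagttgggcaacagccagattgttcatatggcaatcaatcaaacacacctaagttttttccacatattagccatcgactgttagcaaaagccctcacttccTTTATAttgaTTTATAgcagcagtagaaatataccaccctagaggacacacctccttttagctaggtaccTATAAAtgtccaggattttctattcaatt
CES4A, chr16:66988339-66988588, plus strand, AP-1 in capitals: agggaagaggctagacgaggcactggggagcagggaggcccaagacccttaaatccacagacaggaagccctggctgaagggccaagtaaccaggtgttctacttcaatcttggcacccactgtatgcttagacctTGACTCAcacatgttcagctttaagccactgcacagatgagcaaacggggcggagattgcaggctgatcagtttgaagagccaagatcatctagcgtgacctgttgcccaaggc
The HSPB1 match began at position -182 from the start, the CES4A match at -114, and those of DMBT1 at -99, -89 and -29. With GC contents of 40.7% and 54.3%, the DMBT1 and CES4A promoters were below the median of 58.7% of all promoters, and those of EIF5A2, LMLN, JDP2 and HSPB1 were at 61.0% to 69.0%. The matches are letters in a window and not sites shown to be bound.

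In NC, 4 of the genes lay below NT and 4 above it, in the same direction in both lines. The fold between the groups was 1.96 to 3.99. For all 8 genes the 3 NC libraries did not overlap the 3 NT libraries in either line, which is part of how they were chosen and compares with 16.5% of all genes tested in TPC1 and 19.8% in D11. The thresholds used here for a call were a fold of at least 1.5 and a limma adjusted p under 0.05. They were met by 6 of the 8 genes in TPC1 and by 6 in D11 (0.111% of 18008 and 0.35% of 17992 genes met them), and since these counts restate the choice nothing is read from them. CES4A and MAP3K7CL met them in D11 and not in TPC1, and LMLN and PXDNL in TPC1 and not in D11. With the replicate number as a block, all 8 met the thresholds in each line. Of the members, JDP2 had the highest adjusted p among those inside in TPC1 (-1.66 on the log2 scale), and SRPRA was the nearest gene outside (-0.93). In D11 these were MAP3K7CL and CES4A (1.37 and 1.55) and RPLP0P6 (-0.92). Other genes, not among the 8, lay between them and the threshold.

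**Figure D1:**
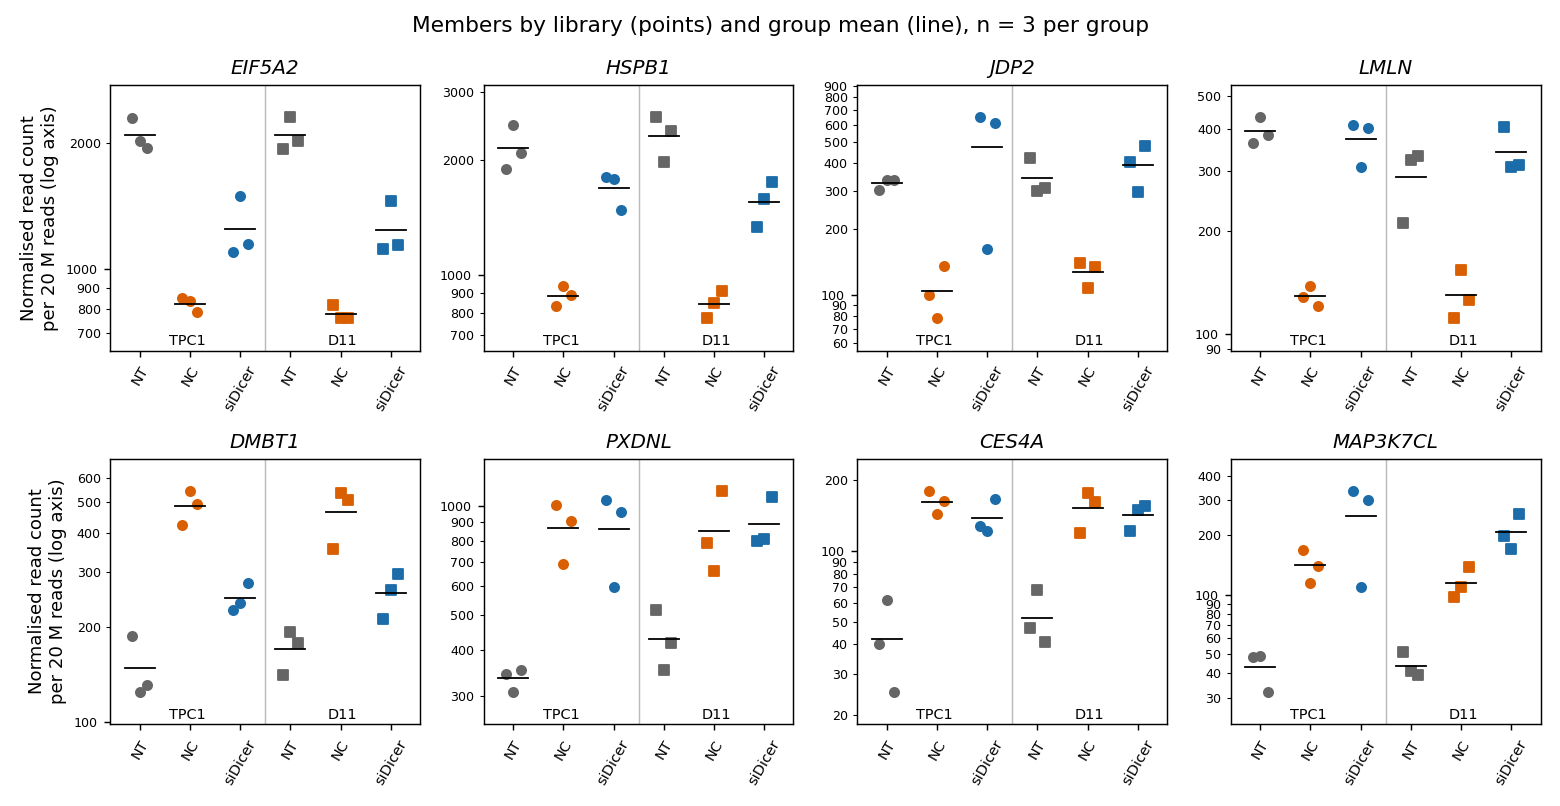
Normalised read count per 20 M reads (log axis) of each of the 8 genes in every library, by line and by condition (NT, NC, siDicer), with 3 points per group and a bar at the group mean. NC points lie below NT points for EIF5A2, HSPB1, JDP2 and LMLN and above them for the other 4 genes in both lines.

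The siDicer libraries did not take a common side. Their position between the groups was taken as the log2 difference of siDicer from NT over that of NC from NT, so that 0 is the NT mean and 1 the NC mean. In TPC1 and D11, the mean position was 0.05 and -0.23 for LMLN and -0.19 and -0.13 for JDP2, near NT. For JDP2 in TPC1 this mean averages libraries that lay well to either side of NT, at -0.61 to 0.60. The mean position was 0.27 and 0.39 for HSPB1, 0.44 and 0.41 for DMBT1 and 0.57 and 0.54 for EIF5A2, between the groups. PXDNL (0.98 and 1.09) and CES4A (0.88 and 0.94) were near NC, and MAP3K7CL (1.39 and 1.62) was past it. Counted by library, 6 of 6 siDicer libraries were nearer to NC for PXDNL, CES4A and MAP3K7CL, 4 of 6 for EIF5A2, 2 for DMBT1, 1 for HSPB1, 1 for JDP2 and 0 for LMLN.

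**Figure D2:**
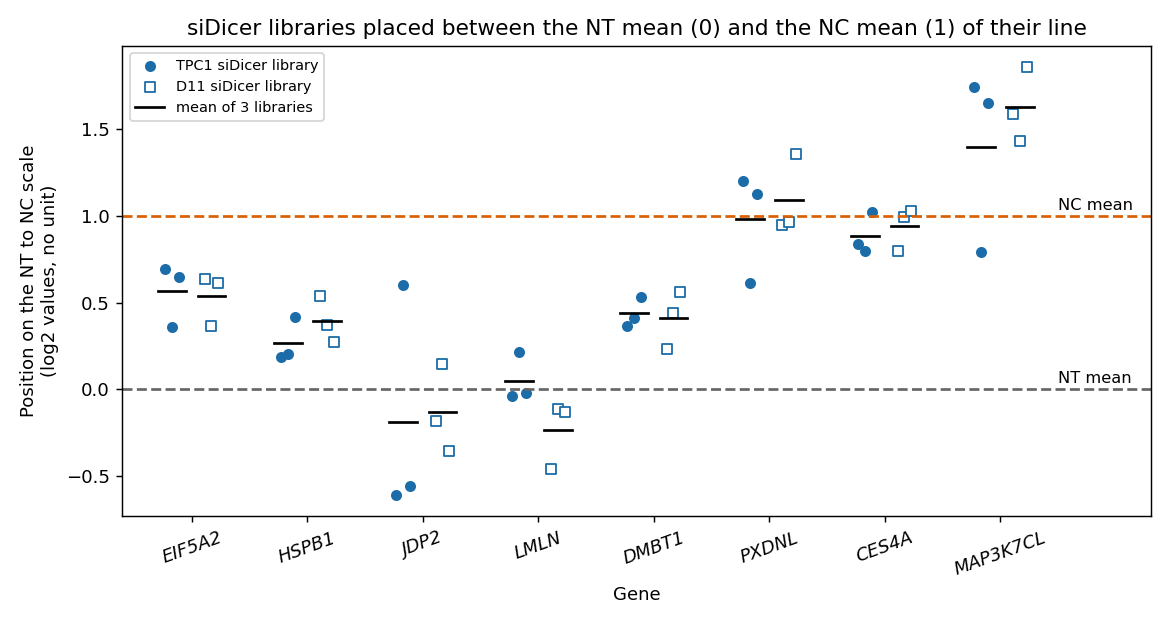
Position of each siDicer library between the NT mean (0) and the NC mean (1) of its line on the log2 scale, for the 8 genes, with 3 points per line and the mean marked. LMLN sits around the NT line, as JDP2 does in D11, while the TPC1 libraries of JDP2 spread from -0.61 to 0.60. PXDNL, CES4A and MAP3K7CL sit around or past the NC line.

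Because position holds the difference that chose the genes, siDicer was tested against the midpoint of the NT and NC means. With equal weights on NT and NC, this contrast does not use the difference between them, although the spread of the same libraries enters both. A positive value leans to NT for a gene that was lower in NC and to NC for a gene that was higher in NC. In TPC1, 3 of the 8 genes were called higher and 0 lower by limma at the same thresholds, where 3.7% and 4.4% of 18475 genes were called higher and lower. In D11, 4 were called higher and 0 lower, against 5.8% and 7.1% of 18413 genes. The median difference over the 8 genes was 0.68 in TPC1 and 0.62 in D11, beside -0.04 in each line over all genes tested. With TMM scaling, the calls over all genes in TPC1 were 928 higher and 613 lower in place of 684 and 812, and in D11 1247 and 1116 in place of 1068 and 1307, so which direction held more calls turned with the scaling in both lines.

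**Figure D3:**
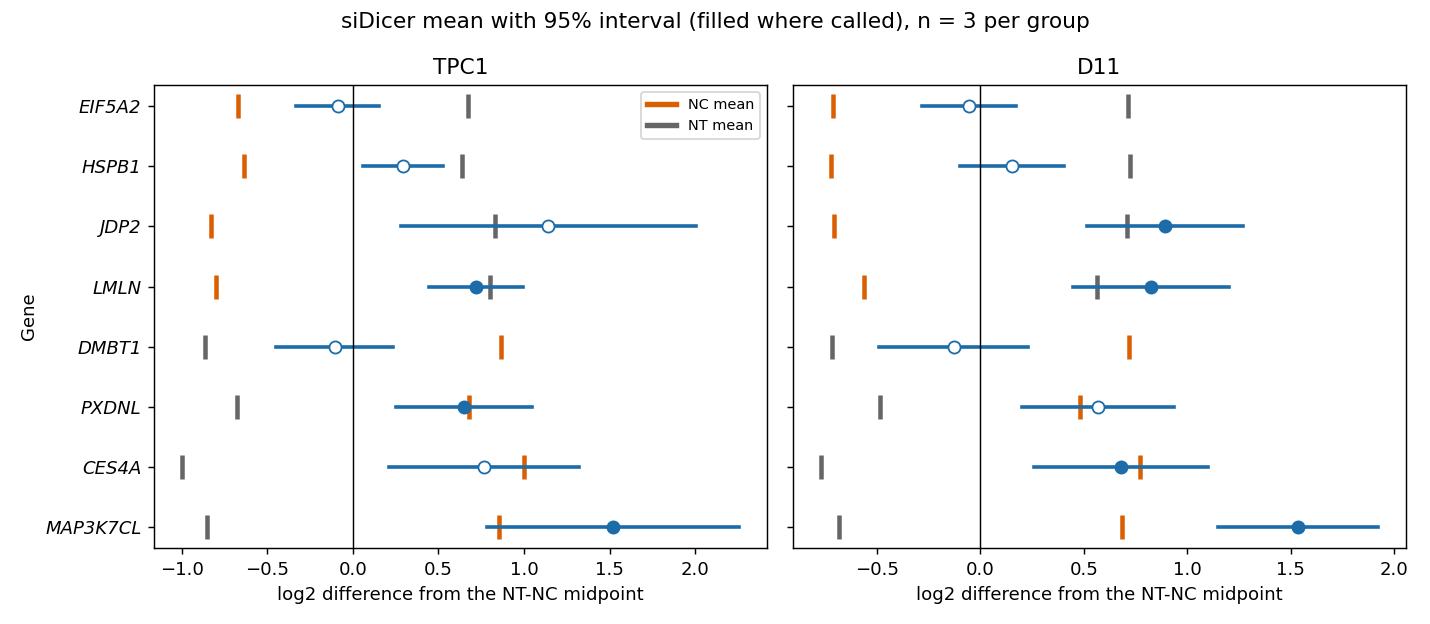
Difference of the siDicer mean from the NT-NC midpoint on the log2 scale for each gene and line, with its 95% interval from limma (n = 3 per group), filled where called, and the NT and NC means as short bars. The intervals of EIF5A2 and DMBT1 include 0 in both lines, and those of LMLN, JDP2, PXDNL, CES4A and MAP3K7CL do not.

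Of the 4 genes lower in NC, LMLN was the clearest case of siDicer libraries at the NT level. LMLN (ENSG00000185621) spans chr3:197960200-198043720 on the plus strand (GRCh38). Values are given in the order of replicates 1, 2 and 3. TPC1 cells had 363, 433 and 384 in the NT libraries, 128, 138 and 121 in the NC libraries and 410, 309 and 402 in the siDicer libraries. D11 cells had 211, 323 and 333 in the NT libraries, 111, 154 and 126 in the NC libraries and 405, 309 and 314 in the siDicer libraries. All 6 siDicer libraries lay above every NC library of their line, and the ranges of siDicer and NT overlapped in both lines. The siDicer mean was above the midpoint by 0.72 (SE 0.12, 95% interval 0.44 to 0.99) on the log2 scale in TPC1, and by 0.83 (SE 0.17, 0.45 to 1.20) in D11 (limma adjusted p 0.00587 and 0.00478). With NT and NC as 1 control group, as the study defines it, the gap between them enters the spread and the call was lost in both lines (adjusted p 0.292 in TPC1 and 0.0841 in D11). The antisense gene LMLN-AS1 overlaps an exon of LMLN and moved with it, with means of 57.7 in NT, 15.7 in NC and 57.3 in siDicer of TPC1. Whether counting used strand is not stated, so reads of this pair cannot be told apart.

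JDP2 (ENSG00000140044, chr14:75427716-75474111, plus strand) also left the NC level in siDicer, but its libraries spread widely in TPC1. In TPC1, NT libraries gave 301, 335 and 334, NC libraries gave 100, 78 and 135 and siDicer libraries gave 650, 162 and 613. In D11, NT libraries gave 423, 299 and 308, NC libraries gave 140, 108 and 134 and siDicer libraries gave 405, 294 and 481. Each siDicer library was above every NC library of its line, and TPC1 siDicer replicate 2, at 162, was the only siDicer library of JDP2 nearer to NC. It was also the TPC1 siDicer library with the most DICER1 (395, against 255 and 246), and the part of this in the JDP2 value was not tested. In TPC1 the difference from the midpoint was 1.14 (SE 0.39, 0.28 to 2.00), which was not called (limma adjusted p 0.0721), and without that library it was 1.79 at an adjusted p of 0.000428. D11 showed a difference of 0.89 (SE 0.17, 0.51 to 1.27), which was called (limma adjusted p 0.00321), but not with NT and NC as 1 control group (adjusted p 0.115).

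HSPB1 (ENSG00000106211, chr7:76302673-76304295, plus strand) took a level between the groups. TPC1 cells had 1896, 2462 and 2079 in the NT libraries, 830, 937 and 887 in the NC libraries and 1809, 1786 and 1477 in the siDicer libraries. D11 cells had 2583, 1968 and 2380 in the NT libraries, 772, 848 and 913 in the NC libraries and 1337, 1579 and 1750 in the siDicer libraries. In each line the 3 siDicer libraries lay below every NT and above every NC library. Their mean differed from the midpoint by 0.29 (SE 0.10, 0.0607 to 0.53) in TPC1 and by 0.15 (SE 0.11, -0.10 to 0.40) in D11, neither of which was called (limma adjusted p 0.0833 and 0.354). No annotated gene overlaps HSPB1.

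EIF5A2 (ENSG00000163577, chr3:170888418-170908644, minus strand) was the gene whose siDicer mean differed least from the midpoint on the log2 scale, in each line. In TPC1, NT libraries gave 2300, 2029 and 1948, NC libraries gave 850, 834 and 787 and siDicer libraries gave 1094, 1495 and 1145. In D11, NT libraries gave 1941, 2313 and 2025, NC libraries gave 817, 760 and 759 and siDicer libraries gave 1117, 1453 and 1140. The siDicer values were again below all NT and above all NC values of the line. Replicate 2, which kept the most DICER1, had the highest EIF5A2 of the siDicer libraries in both lines (1495 and 1453); whether these go together was not tested. The difference from the midpoint was -0.09 (SE 0.11, -0.33 to 0.15) in TPC1 and -0.05 (SE 0.10, -0.28 to 0.17) in D11 (limma adjusted p 0.620 and 0.742). The paralog EIF5A, which most cells express at a high level, had NC minus NT differences of 0.10 in TPC1 and -0.10 in D11, called in neither line.

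Of the 4 genes higher in NC, DMBT1 (ENSG00000187908, chr10:122560665-122643736, plus strand) was the one whose siDicer libraries lay apart from NC in both lines on the side of NT. TPC1 cells had 188, 124 and 131 in the NT libraries, 423, 544 and 493 in the NC libraries and 226, 239 and 276 in the siDicer libraries. D11 cells had 141, 193 and 178 in the NT libraries, 355, 535 and 510 in the NC libraries and 213, 263 and 296 in the siDicer libraries. No siDicer library overlapped either control group of its line. The difference from the midpoint was -0.11 (SE 0.15, -0.45 to 0.23) in TPC1 and -0.13 (SE 0.17, -0.49 to 0.23) in D11, not called in either (limma adjusted p 0.677 and 0.606). DMBT1 thus took a place between the groups much as HSPB1 and EIF5A2 did, with the opposite sign. Over the 18 libraries its log2 values ran against both, with Pearson's r of -0.916 for HSPB1 and -0.901 for EIF5A2. These correlations rest on the group differences that chose the genes and are a description.

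PXDNL (ENSG00000147485, chr8:51319577-51809445, minus strand) stayed at the NC level in siDicer. In TPC1, NT libraries gave 345, 307 and 353, NC libraries gave 1002, 692 and 905 and siDicer libraries gave 1033, 596 and 960. In D11, NT libraries gave 517, 353 and 419, NC libraries gave 791, 661 and 1097 and siDicer libraries gave 800, 811 and 1055. The siDicer libraries overlapped NC and lay above every NT library in both lines. In TPC1 the difference from the midpoint was 0.65 (SE 0.18, 0.25 to 1.05) and was called (limma adjusted p 0.0360). That call was lost in 6 of the 9 fits that left out a library, at 0.50 to 0.67. It was also lost with NT and NC as 1 control group (limma adjusted p 0.294). In D11 the difference was 0.57 (SE 0.17, 0.20 to 0.94), with a limma adjusted p of 0.0275 but a fold of 1.48, under the minimum of 1.5. With TMM scaling it reached the minimum, at 0.61. The antisense gene AC012413.1 overlaps an exon of PXDNL and had the highest correlation with it among 12508 genes with a mean of at least 100 (Pearson's r 0.988 over 18 libraries). Its means were 99.3, 243 and 249 in NT, NC and siDicer of TPC1, and reads of this pair cannot be told apart here. The paralog PXDN differed between NC and NT by 0.15 in TPC1 and 0.25 in D11, not called in either.

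CES4A (ENSG00000172824, chr16:66988589-67010417, plus strand) followed the same pattern at a lower level. TPC1 cells had 40, 62 and 25 in the NT libraries, 180, 143 and 163 in the NC libraries and 128, 121 and 166 in the siDicer libraries. D11 cells had 47, 68 and 41 in the NT libraries, 119, 177 and 161 in the NC libraries and 121, 149 and 155 in the siDicer libraries. The siDicer libraries overlapped NC and were above all NT libraries in both lines, and the lowest value, 25, rested on 14 reads. The difference from the midpoint was 0.76 (SE 0.25, 0.21 to 1.32) in TPC1 and was not called (limma adjusted p 0.0624), although it was with TMM scaling (0.83, adjusted p 0.0427) and without NT replicate 2 (0.92, adjusted p 0.00947). In D11 it was 0.68 (SE 0.19, 0.26 to 1.10) and was called (limma adjusted p 0.0224), but not without siDicer replicate 2 or 3 (0.64 and 0.61) or with NT and NC as 1 control group (adjusted p 0.270). The gene AC009084.2 on the opposite strand overlaps an exon of CES4A, with means of 16.7, 61.3 and 56.7 in NT, NC and siDicer of TPC1. The relative CES3, named here after its value was seen, was higher in NC than in NT, by 1.20 in TPC1 and 1.06 in D11. It was called in neither line (limma adjusted p 0.169 and 0.168). CES2 differed by 0.18 and 0.10, also not called.

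MAP3K7CL (ENSG00000156265, chr21:29077221-29175889, plus strand) was the gene with the largest difference from the midpoint among the 8. In TPC1, NT libraries gave 48, 49 and 32, NC libraries gave 169, 115 and 140 and siDicer libraries gave 335, 109 and 302. In D11, NT libraries gave 51, 41 and 39, NC libraries gave 97, 109 and 138 and siDicer libraries gave 198, 171 and 256. In D11 every siDicer library was above every NC library, while in TPC1 replicate 2 of siDicer, at 109, was below all 3 NC libraries and the other siDicer libraries were above them. The difference from the midpoint was 1.52 (SE 0.33, 0.78 to 2.26) in TPC1 and 1.53 (SE 0.18, 1.15 to 1.92) in D11, both called (limma adjusted p 0.0145 and 0.000196). The TPC1 call was lost without siDicer replicate 1 (1.23, adjusted p 0.0847) or 3 (1.30, adjusted p 0.0908) and with NT and NC as 1 control group (adjusted p 0.0852). The D11 call was made under every alternative that was run. MAP3K7, the gene of TAK1, differed between NC and NT by -0.19 and -0.06 and was called in neither line.

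Libraries of siDicer were further set against each control group by overlap alone. The 8 genes were chosen for a gap between NT and NC, so a siDicer group that misses one of them draws on that choice, and nothing is read from the shares over all genes beside it. In siDicer against NT, 6 of the 8 genes did not overlap in each line, all but JDP2 and LMLN, beside 31.1% of all genes in TPC1 and 44.1% in D11. In siDicer against NC, 5 genes did not overlap in TPC1, beside 33.3%, and 6 in D11, beside 35.6%. Among the 8, HSPB1 and EIF5A2 (Pearson's r 0.908 over 18 libraries), PXDNL and MAP3K7CL (0.911), PXDNL and CES4A (0.856), CES4A and MAP3K7CL (0.852) and JDP2 and LMLN (0.835) had like patterns. JDP2 and MAP3K7CL, which differ in sign between NC and NT, had an r of 0.0848. Of non-members with a mean of at least 100, the nearest in pattern to HSPB1 were ZBTB7A (0.949) and CPNE1 (0.936), those to EIF5A2 were CDK16 (0.959) and CHD1L (0.956), and LATS2 (0.963) was next to AC012413.1 for PXDNL.

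D11 cells carry only 1 intact Dicer1 allele, and the 8 genes were compared between the lines. In the siDicer libraries, which the choice did not use, 0 of the 8 genes differed between D11 and TPC1 by limma (adjusted p 1.00 for each), beside 0.287% of 17791 genes called, with 748 at an unadjusted p under 0.05. Differences ran from -0.12 for LMLN (95% interval -0.49 to 0.24) to 0.07 for PXDNL (-0.42 to 0.56), and the widest interval was that of JDP2 (-1.19 to 1.07). In the NT and NC libraries, with transfection as a term, 0 of the 8 were called, beside 1.02% of 18814 genes, and differences ran from -0.23 for LMLN (-0.53 to 0.06) to 0.19 for JDP2 (-0.11 to 0.49). The lowest adjusted p of the 8 was 0.593. DICER1 was lower in D11 than in TPC1 in these libraries, by -0.68 (SE 0.12, limma adjusted p 0.00561). The interaction of line and siDicer was called for 0 of the 8, with values from -0.25 (JDP2, -1.20 to 0.71) to 0.11 (LMLN, -0.36 to 0.57), and for 0 of 19181 genes by limma, with 171 at an unadjusted p under 0.05 and 0 by voom. The intervals bound the difference between the lines and do not show that it is absent.

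**Figure D4:**
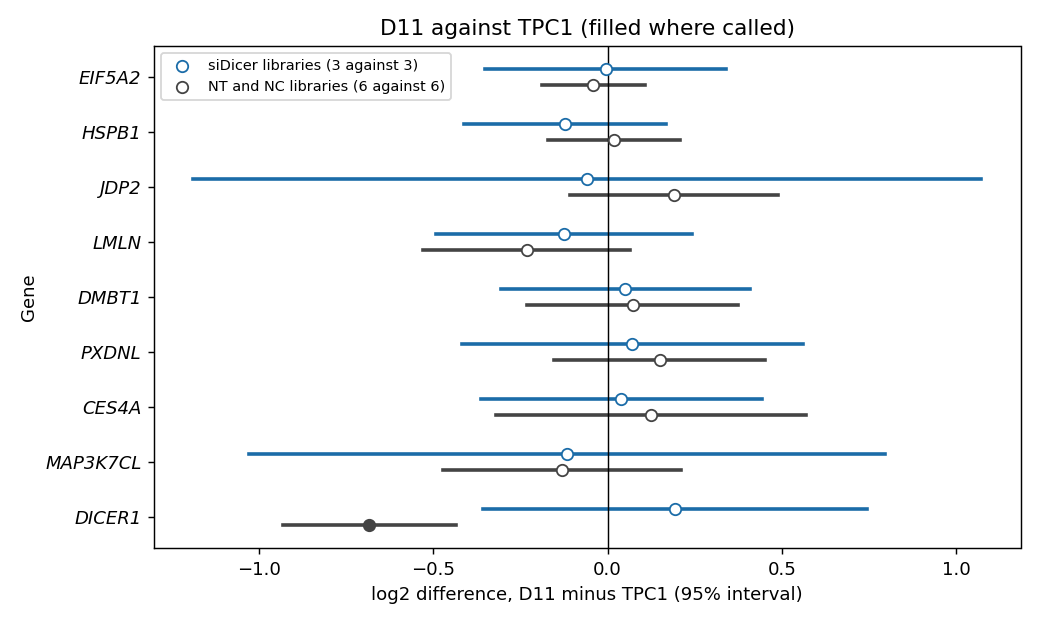
Difference of D11 from TPC1 on the log2 scale for each gene with its 95% interval from limma, in the siDicer libraries (n = 3 per line) and in the NT and NC libraries with transfection as a term (n = 6 per line). Every interval of the 8 genes includes 0, and that of JDP2 in siDicer is the widest.

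The genes were set beside lists of related genes: heat shock proteins and chaperones, AP-1 and CRE dimer partners, eIF5A with its hypusine and polyamine pathway, double-stranded RNA sensors and interferon genes, small RNA silencing genes, and relatives of the other members. In NC against NT, 0 of 19, 17, 14, 22, 13 and 9 tested genes of these lists were called in TPC1 and 0 in D11 (limma), beside 0.111% and 0.35% of all genes. By voom on recovered reads it was also 0 in each list. The lists still differed in their median NC minus NT difference. It was 0.23 in TPC1 and 0.26 in D11 for interferon genes, and 0.13 and 0.44 for silencing genes. The median over all genes was 0.001 and 0.02, and those of the other lists lay between -0.15 and 0.14. These medians were not tested. An unadjusted p under 0.05 was reached, in TPC1 and D11, by 7 and 5 AP-1 genes, 5 and 6 silencing genes, 4 and 6 interferon genes, 2 and 2 polyamine pathway genes, 2 and 1 relatives and 0 and 0 heat shock genes, beside 2003 of 18008 and 2447 of 17992 genes in all. HSPB8, a small heat shock partner of HSPB1, differed by 0.10 and -0.04, and CRYAB did not exceed 8 in any library and was not tested.

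In siDicer against the midpoint, 0 of 23 interferon genes were called higher and 3 lower in TPC1, and 1 higher and 7 lower in D11, beside 3.7% and 4.4% of all genes in TPC1 and 5.8% and 7.1% in D11. The median of the list was 0.04 in TPC1 and 0.05 in D11, beside -0.04 in each line over all genes. The gene called higher was IFI44L (1.02 in D11), named here after its value was seen. IFI44, an interferon-induced gene, was lower by -0.72 in TPC1 and -0.86 in D11. OAS3, which makes the second messenger that activates RNase L, was lower by -0.68 and -0.72, and ISG15, a ubiquitin-like modifier, was called only in D11 (-0.98, with -0.58 in TPC1). Of 17 AP-1 genes, 1 was called higher in D11 (JUND, 0.68) and 1 lower (BATF3, -0.93), and of 14 genes of the eIF5A and polyamine list 2 were called lower (ODC1, -0.66, and PAOX, -1.54, enzymes of polyamine turnover). Of 9 relatives, 2 were called higher in D11, TAB3 (0.77), a TAK1 binding protein, and CD163L1 (0.85), a scavenger receptor relative of DMBT1. With 1 or 2 calls in lists of this size, these counts say nothing particular about the lists, and in TPC1 these lists held 0 calls by limma and by voom, with 4, 8 and 5 genes at an unadjusted p under 0.05. Among silencing genes DICER1 alone was called in each line, and 0 of 19 heat shock genes were (limma and voom), with 0 in TPC1 and 8 in D11 at an unadjusted p under 0.05. Over all genes, 5966 of 18475 in TPC1 and 7077 of 18413 in D11 reached an unadjusted limma p under 0.05, and nothing is read from the list counts beside these.

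Taking all genes called in NC against NT in place of the 8, the side of siDicer differed with the direction in NC. There were 20 such genes in TPC1 and 63 in D11 (565 and 315 with the replicate block). Of the 20 and 63, 15 were called in both lines, 75% of the TPC1 and 23.8% of the D11 genes. All 15 of 15 had the same direction. Of the genes lower in NC, 2 of 14 in TPC1 and 13 of 36 in D11 had a siDicer mean nearer to NC, with median positions of 0.06 and 0.20. Of those higher in NC, 5 of 6 and 23 of 27 did, with median positions of 1.12 and 1.15. Position holds the difference that chose these genes, so these counts and medians are a description. Against the midpoint in D11, 9 of the 36 lower genes were called toward NT, 4 toward NC and 23 not called. Of the 27 higher genes, 13 were called toward NC, 0 toward NT and 14 not called. In TPC1, 3 of the 14 lower genes were called toward NT, 0 toward NC and 11 not called. Of the 6 higher genes there, 4 were called toward NC, 0 toward NT and 2 not called. Over all genes, 5.8% were called higher and 7.1% lower in D11, and 3.7% and 4.4% in TPC1. The choice favoured genes with a small spread in the NT and NC libraries, which enter this fit, so nothing is read from these counts beside the shares. A call toward NT is a higher value for genes lower in NC, and a call toward NC for genes higher in NC. The number of calls depended on the libraries kept. In TPC1, 0 were called without NT replicate 3 or NC replicate 1 or 3 (1392, 1140 and 1133 at an unadjusted limma p under 0.05). In D11, 0 were called without NT replicate 3 or NC replicate 2 (1395 and 2319). Such a fit has a smaller group, and what part this had in the lost calls was not tested. For the 8 members the difference of NC from NT kept its sign in all 6 such fits of each line. Its widest range was 1.68 to 2.31, for CES4A in TPC1.

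**Figure D5:**
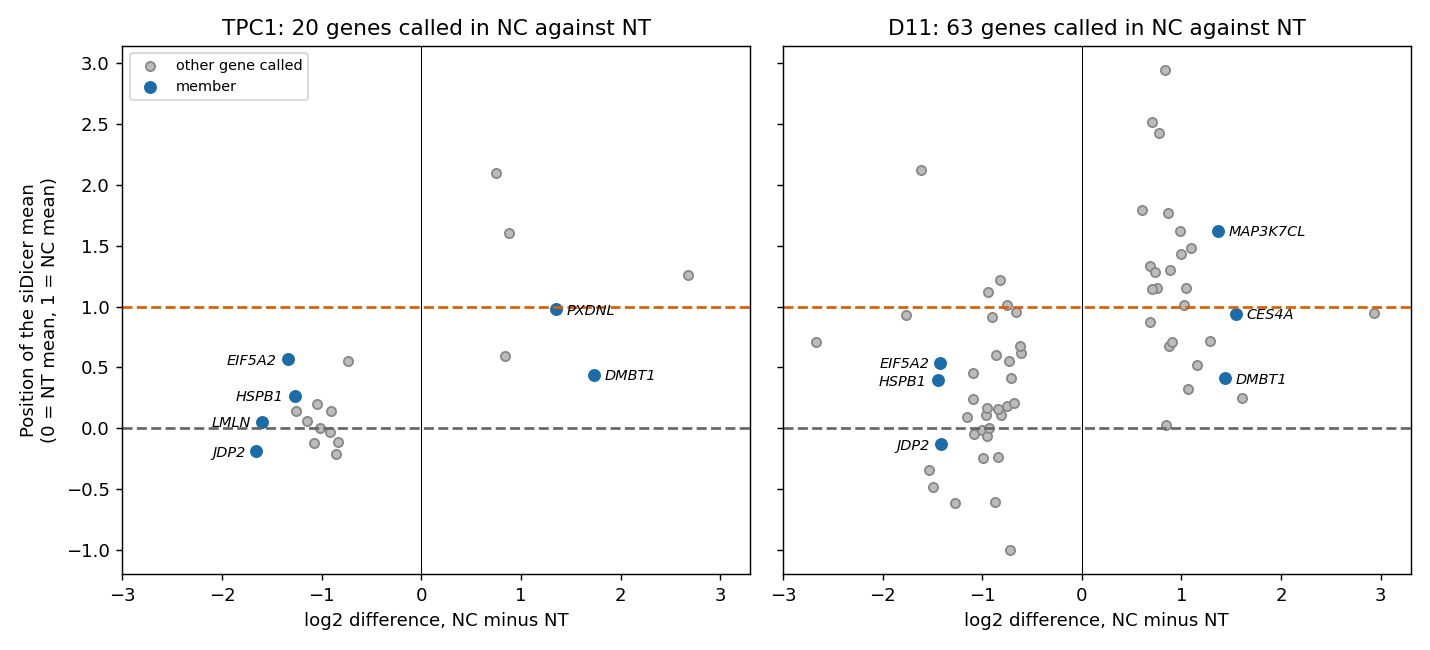
Position of the siDicer mean between NT (0) and NC (1) against the log2 difference of NC from NT, for the 20 genes called in TPC1 and the 63 called in D11, with the members called in that line in blue. Genes lower in NC have median positions of 0.06 and 0.20, and genes higher in NC of 1.12 and 1.15.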

How the data were processed

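Stranded, poly-A selected libraries were sequenced from 18 samples. Per the study's methods, the authors aligned reads to GRCh38 with STAR 2.5.3a, counted them per gene of the Ensembl annotation with HTSeq 0.9.1 and scaled each library to 20 M reads. The deposited values are a normalised score, rounded up to whole numbers, and not read counts. Whether counting used strand, and how reads shared between gene copies were handled, is not given in the sources used here.

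The value of 1 read was recovered from the steps of each column. Values were taken as log2(value + 1), which understates the change of low genes. Genes with at least 10 in at least 3 libraries of a fit entered limma-trend (limma 3.58.1, R 4.3.3) with Benjamini-Hochberg adjustment over all genes tested, and calls needed an adjusted p under 0.05 and a fold of at least 1.5. Groups came from the descriptions. The fits were tested on simulated data with known changes. All 8 genes passed the filter in every fit. The members, the gene lists, the motifs and the rule for named genes (members, their partners, up to 5 called genes of each list or otherwise the 3 with the smallest p, and the 2 genes nearest in pattern to each of the 3 most abundant members) were chosen with earlier results of these data known. Identical library pairs numbered 0, and replicates differed by more than sampling noise.

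Alternatives were TMM scaling, no filter on low values, pseudocounts of 0.1 and 10, a block for the replicate number, 1 fit over the 18 libraries, NT and NC as 1 control group, and leaving out each library, and voom on recovered reads and, between the lines, a block shared by both lines were added after seeing the data. Same-numbered libraries deviated together in D11, where 9 of 9 correlations exceeded 0.1 (0.106 to 0.473). In TPC1 it was 7 of 9 (0.0861 to 0.509). Libraries with different numbers had correlations of -0.383 to 0.169 in D11 and -0.491 to 0.18 in TPC1. The main fits held no replicate term in either line, so their intervals and adjusted p-values do not use this pairing. What a replicate number stands for is not labelled. Positions are from GENCODE on GRCh38. Promoters are from RefSeq.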

Additional observations from a re-analysis of the deposited data

How the results depend on the processing

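In the comparisons other than NC against NT, no called difference of the 8 genes reversed. Against the midpoint, leaving out each library kept the side of the threshold in 129 fits of single genes, gained a call in 5 and lost it in 10, and the other settings kept it in 115, gained it in 7 and lost it in 6. With the NT-NC gap in the spread, as 1 control group, 6 calls were lost. Of the 3 calls in TPC1 and 4 in D11, only that of MAP3K7CL in D11 was kept. With a replicate block, JDP2 (limma adjusted p 0.0167) and CES4A (0.0410) were gained in TPC1, where 7 of 9 same-numbered correlations exceeded 0.1 (0.0861 to 0.509). The block changed no other call of the 8 genes against the midpoint. Between the lines, a replicate block within each line could not be fitted, and with a block shared by both lines 0 of the 8 were called, as in the other settings.

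Counts over all genes moved more. For NC against NT, 20 calls in TPC1 became 13 with no filter, 565 with the replicate block and 146 with all 18 libraries, and 63 in D11 became 8, 315 and 202. Without 1 library, the counts ranged over 0 to 55 for TPC1 and 0 to 101 for D11. The members meeting the thresholds were then 0 to 8 of 8 in each line, and 8 in each line with the block. The 51 calls between the lines in siDicer became 28 with a pseudocount of 0.1, 101 with all 18 libraries and 123 with the shared replicate block, and 2 to 47 without a library; the 191 in the controls became 385 with that block and 153 to 194 without a library. Against the midpoint, the 1496 calls in TPC1 became 503 to 2349, the lowest without siDicer replicate 3 and the highest without siDicer replicate 2, and were 563 without siDicer replicate 1. The 2375 in D11 became 1695 to 2600 without 1 library. With the replicate block the midpoint calls were 2138 in TPC1 and 2740 in D11. The cause of these changes was not tested. TMM scaling moved medians over all genes by at most 0.06. With 3 libraries per group, the interval of JDP2 in TPC1 spanned 0.28 to 2.00.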
